A study of Homo sapiens with 12 samples.

Results

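The cell's principal SR protein kinases fall into a CLK family (CLK1, CLK2, CLK3 and CLK4) and an SRPK family, represented here by SRPK1 and SRPK2. These 6 genes were taken by symbol, and each matched 1 Ensembl identifier among the 60662 genes of the RNA count files and 1 among the 12224 genes of the translation efficiency table. They are CLK1 (ENSG00000013441.16, chromosome 2), CLK2 (ENSG00000176444.19, chromosome 1), CLK3 (ENSG00000179335.18, chromosome 15), CLK4 (ENSG00000113240.13, chromosome 5), SRPK1 (ENSG00000096063.16, chromosome 6) and SRPK2 (ENSG00000135250.17, chromosome 7). All 6 passed the filters of the RNA test and of the footprint test.

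The treated arm was HEK293T cells, an established human embryonic kidney line labelled wild type, kept for 6 h with STM2457, which blocks METTL3, the enzyme that writes m6A on mRNA, at 20 µM in 0.2% DMSO. The control arm was the same line kept for 6 h in 0.2% DMSO alone. Cells of both arms received 10% extra fetal bovine serum 1 h before lysis and 100 µg/ml cycloheximide, which stalls elongating ribosomes, for the last 3 min. Poly(A)-selected RNA-seq comprised 4 libraries per arm and ribosome profiling of 26 to 34 nt footprints 2 libraries per arm.

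SR proteins are splicing factors whose tails of arginine and serine repeats are heavily phosphorylated. SRPK kinases act on them mainly in the cytoplasm, which favours their import into the nucleus, and CLK kinases phosphorylate them further in the nucleus, which releases them from nuclear speckles. CLK1 and CLK4 transcripts are known for detained introns, which hold polyadenylated but incompletely spliced RNA in the nucleus, away from ribosomes. Setting footprints against RNA therefore bears on these genes, but the deposited RNA counts are per gene and do not separate spliced from intron-containing RNA.

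Each RNA-seq library held between 43291730 and 51645739 counts, of which 0.389% to 0.466% were ERCC spike-in sequences. Footprint reads recovered from the table numbered 4039314 and 3898620 in the STM2457 libraries, against 4711513 and 3198063 in the DMSO libraries. All 7 markers listed for the HEK293 line were above 1 CPM (a gene's count scaled to the size of its library) on average in both arms. Their summed level was 756 to 807 CPM with STM2457 and 645 to 691 CPM with DMSO, and the part of this difference in other results was not tested. Of 10 fibroblast, hepatocyte and carcinoma markers, only CDH1 reached 1 CPM on average, and KRT5 was at 0 in every library. The labels do not state whether replicates came from separate cultures. All p-values therefore refer only to library-to-library spread, part of which may be technical. In bulk RNA, fewer cells of a kind and less RNA per cell cannot be told apart.

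Relative to the median gene (TMM scaling), the RNA of both SRPK genes rose with STM2457 and that of CLK3 fell, with log2 fold changes between -0.17 and 0.26. With ERCC spike-ins as the scaling neither SRPK gene passed, and SRPK1 was at -0.016. CLK1, CLK2 and CLK4 had negative log2 fold changes in RNA that did not pass the test. None of the 6 genes passed the test of footprints or of translational efficiency. The main contrast within the family was one of level: CLK4, CLK1 and CLK2 carried few footprints for their RNA in both arms, CLK2 less clearly with DMSO, while CLK3, SRPK1 and SRPK2 lay in the middle of the range.

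The sequences below are the RefSeq start regions (GRCh38.p14) of the 3 genes whose RNA passed the test, 300 bases around the annotated start. They are shown so that the genes called in opposite directions can be set side by side. Where a gene has several annotated starts, the window with the most CpG dinucleotides is shown. These are 5′ to 3′ on the minus strand of chr6:35921049-35921348 for SRPK1, the minus strand of chr7:105388872-105389171 for SRPK2 and the plus strand of chr15:74615586-74615885 for CLK3. Capitals mark the GC box GGGCGG and the cAMP response half-site TGACG, each searched on both strands. The windows and the motifs were chosen after the sequences were seen.
SRPK1: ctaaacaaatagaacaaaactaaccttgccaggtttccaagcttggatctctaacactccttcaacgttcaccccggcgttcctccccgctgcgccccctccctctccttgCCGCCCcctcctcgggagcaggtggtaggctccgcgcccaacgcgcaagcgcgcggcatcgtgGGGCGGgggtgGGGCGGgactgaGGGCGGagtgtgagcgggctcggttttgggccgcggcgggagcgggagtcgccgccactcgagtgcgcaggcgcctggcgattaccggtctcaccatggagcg
SRPK2: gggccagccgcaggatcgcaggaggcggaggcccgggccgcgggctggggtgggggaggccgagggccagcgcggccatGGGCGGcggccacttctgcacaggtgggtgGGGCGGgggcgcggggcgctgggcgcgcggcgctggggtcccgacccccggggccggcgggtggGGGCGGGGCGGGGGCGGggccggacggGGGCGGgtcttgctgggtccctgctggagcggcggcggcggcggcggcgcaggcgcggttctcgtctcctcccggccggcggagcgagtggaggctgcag
CLK3: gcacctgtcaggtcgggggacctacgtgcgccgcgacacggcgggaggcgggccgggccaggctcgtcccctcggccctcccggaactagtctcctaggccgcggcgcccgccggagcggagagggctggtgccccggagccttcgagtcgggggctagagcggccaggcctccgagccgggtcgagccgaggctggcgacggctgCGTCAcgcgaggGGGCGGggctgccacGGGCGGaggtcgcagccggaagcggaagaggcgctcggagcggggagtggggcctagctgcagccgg
The GC box was present 4 times in the SRPK1 window, 6 times in the SRPK2 window, where some copies overlap, and 2 times in the CLK3 window. It occurs in 45.0% of the 35116 RefSeq windows. The half-site was found 1 time in the CLK3 window and in neither SRPK window, against 24.6% of all windows. A CCAAT box, searched as CCAAT on both strands, was in none of the 3 windows and in 34.6% of all windows. Windows chosen for their CpG content favour a motif such as the GC box, so the shares over all windows do not measure enrichment. The other 3 SRPK2 windows and the other CLK3 window held no GC box, 1 of those SRPK2 windows held 1 half-site, and that CLK3 window held 2 CCAAT boxes. The most CpG-rich windows of CLK1 and CLK4 each held 2 GC boxes and 1 half-site, and that of CLK2 2 GC boxes and no half-site.

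SRPK1, the ubiquitous SRPK kinase, had RNA levels of 310, 304, 284 and 294 CPM in the STM2457 libraries, against 269, 269, 256 and 258 CPM in the DMSO libraries. The lowest STM2457 library stood above the highest DMSO library. The mean was 298 ± 11.2 CPM with STM2457 and 263 ± 6.83 CPM with DMSO (SD, n = 4 each), a log2 fold change of 0.18 (SE 0.03, edgeR quasi-likelihood adjusted p = 0.000305).

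SRPK2, its paralog, had 78.7, 79.9, 74.2 and 74.9 CPM with STM2457, against 66.3, 64.4, 62.8 and 63.0 CPM with DMSO. The arms again did not overlap, and this was the largest RNA change of the 6 kinases. The mean was 76.9 ± 2.80 CPM with STM2457 and 64.1 ± 1.61 CPM with DMSO (SD, n = 4 each), a log2 fold change of 0.26 (SE 0.03, edgeR adjusted p = 2.5e-05).

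CLK3 RNA stood at 37.4, 37.1, 41.5 and 38.4 CPM in the STM2457 libraries and at 41.5, 41.6, 44.9 and 46.0 CPM in the DMSO libraries. The arms were separate by a narrow margin, since STM2457 replicate 3 lay just under the lowest DMSO library. The mean was 38.6 ± 2.0 CPM with STM2457 and 43.5 ± 2.32 CPM with DMSO (SD, n = 4 each), and the gene fell by 0.17 on the log2 scale (SE 0.05, edgeR adjusted p = 0.00799).

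CLK4 RNA levels were 19.2, 17.7, 20.6 and 18.9 CPM with STM2457, against 20.8, 19.6, 21.3 and 22.0 CPM with DMSO. STM2457 replicate 3 lay inside the DMSO range, and the log2 fold change of -0.13 (SE 0.05) did not pass (edgeR adjusted p = 0.0575). CLK1 had 40.1, 37.9, 46.9 and 42.5 CPM with STM2457, against 43.1, 42.1, 45.8 and 48.6 CPM with DMSO. The CLK1 arms overlapped, with a log2 fold change of -0.10 (SE 0.06, edgeR adjusted p = 0.203). CLK2 had 73.9, 71.1, 106 and 82.0 CPM with STM2457, against 74.3, 72.6, 97.1 and 97.1 CPM with DMSO. Its highest library of all was STM2457 replicate 3, and its log2 fold change was -0.04 (SE 0.13, edgeR adjusted p = 0.838).

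**Figure D1:**
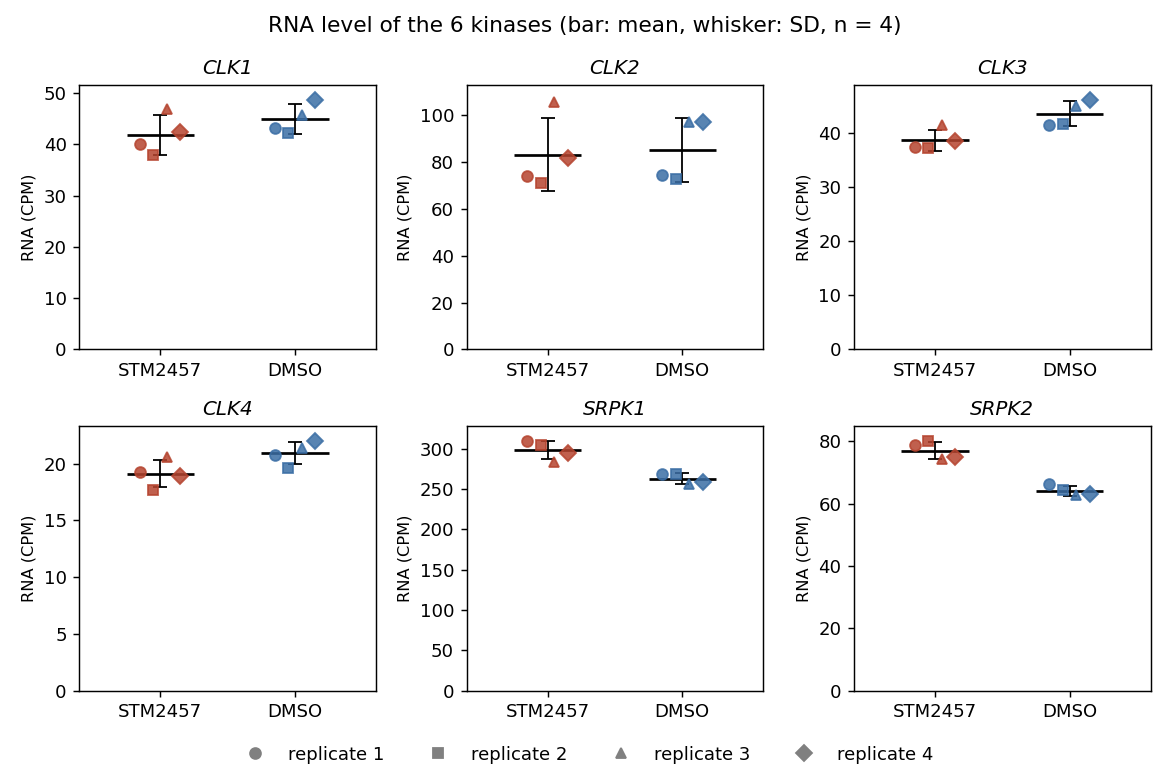
RNA level in CPM (vertical axes, from 0) of each kinase in the 4 STM2457 and 4 DMSO libraries. Marker shape gives the replicate number, the horizontal bar the mean and the whisker the SD. The SRPK1 and SRPK2 arms are apart, the CLK3 arms are barely apart, and the CLK1, CLK2 and CLK4 arms overlap.

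Of the 6 kinases, 2 were called higher and 1 lower, in a data set where edgeR called 47.8% of 17807 genes, 26.2% as higher and 21.6% as lower. With ERCC scaling 0 were called higher and 3 lower, where edgeR called 59.2% of genes, 12.1% as higher and 47.1% as lower. Sizes were ordinary as well: 36.3% of all tested genes had an RNA change at least as large as that of SRPK2, and 50.8% one at least as large as that of CLK3. Arms did not overlap for 3 of the 6 kinases and for 44.7% of all tested genes. CLK3 was the 1 kinase whose STM2457 libraries all lay lower, as they did for 19.8% of genes.

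Replicates differed in kinase RNA in a way the arms shared. On average replicates 3 and 4 had more RNA of each CLK gene and less of each SRPK gene than replicates 1 and 2, in both arms. CLK2 averaged 93.9 CPM in STM2457 replicates 3 and 4 and 72.5 CPM in STM2457 replicates 1 and 2, and likewise 97.1 CPM in DMSO replicates 3 and 4 and 73.5 CPM in DMSO replicates 1 and 2. The CLK2 difference between these pairs of replicates was 0.36 on the log2 scale with STM2457 and 0.40 with DMSO, where 6.87% and 5.34% of tested genes had a larger positive one. CLK1 differed in the same way by 0.20 with STM2457 and 0.15 with DMSO, and SRPK1 by -0.085 with STM2457 and -0.064 with DMSO. With STM2457 and DMSO in turn, 13.9% and 18.2% of tested genes lay above CLK1, 22.3% and 19.9% above CLK3, and 22.9% and 23.7% above CLK4. Likewise 23.5% and 20.7% lay below SRPK1, and 22.5% and 24.5% below SRPK2. The labels name no batch, and the source of this difference was not tested.

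Within replicates 1 and 2 the log2 fold change of CLK1 was -0.14 (edgeR adjusted p = 0.0192), and within replicates 3 and 4 it was -0.08 (edgeR adjusted p = 0.335). CLK2 stayed close to 0 in both, at -0.032 and -0.050. CLK3 had -0.17 and -0.19, SRPK1 0.18 and 0.17, and SRPK2 0.27 and 0.25, each past the test in either pair. CLK4 had -0.14 and -0.13 and passed in neither. These splits were chosen after the data were seen, as was a fit with a term for the pairs of replicates, in which CLK1 (-0.10, edgeR adjusted p = 0.0257) and CLK4 (-0.13, edgeR adjusted p = 0.0180) also passed. Leaving out STM2457 replicate 3 did the same, with CLK1 at -0.16 and CLK4 at -0.17, and CLK4 also passed without DMSO replicate 2 (-0.16). Over all genes the fit with that term called 9604 and the fit without STM2457 replicate 3 called 8647, against 8511 in the main test.

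The calls of the SRPK genes depended on the scaling. The ERCC share was 0.427%, 0.426%, 0.415% and 0.466% in STM2457 replicates 1 to 4, against 0.389%, 0.407%, 0.408% and 0.407% in DMSO replicates 1 to 4. The fit with ERCC scaling was not repeated with a library left out. With ERCC spike-ins as the scaling the median gene moved to -0.19 on the log2 scale, SRPK1 turned to -0.016 (edgeR adjusted p = 0.803) and SRPK2 was at 0.067 (edgeR adjusted p = 0.313), so neither passed. All 4 CLK genes lay below the median gene with this scaling, as they did with TMM scaling, where the median gene was at 0.0025. With ERCC scaling they were at -0.30 for CLK1, -0.23 for CLK2, -0.37 for CLK3 and -0.33 for CLK4. Of these CLK2 did not pass (edgeR adjusted p = 0.0552). Both SRPK genes lay above the median gene with either scaling. A ratio of kinases within a library does not depend on scaling, and the following pairs were chosen after their values were seen. The log2 CPM of CLK3 minus that of SRPK2 was -0.995 ± 0.12 with STM2457 and -0.56 ± 0.11 with DMSO (SD, n = 4 each), without overlap of the arms. CLK4 minus SRPK2 was -2.01 ± 0.13 with STM2457 and -1.61 ± 0.091 with DMSO, also without overlap. CLK1 minus SRPK1 was -2.83 ± 0.18 with STM2457 and -2.55 ± 0.13 with DMSO, with overlapping arms. The share of all gene pairs whose arms do not overlap was not computed, and among single genes it was 44.7%. The pairs reuse the values given above, so they are no further test of these genes. These gaps include each gene's length, so they serve to compare the arms and not the genes.

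Footprints are the mRNA fragments that ribosomes protect, and they were measured in 2 libraries per arm. CLK3 had a normalized footprint signal of 703 and 617 with STM2457, against 879 and 771 with DMSO. CLK2 had 771 and 843 with STM2457, against 863 and 1162 with DMSO. For both genes the STM2457 libraries lay below the DMSO libraries, with log2 changes of -0.32 (SE 0.15, limma adjusted p = 0.154) for CLK3 and -0.31 (SE 0.15, limma adjusted p = 0.150) for CLK2.

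CLK1 had a footprint signal of 315 and 226 with STM2457, against 328 and 347 with DMSO, and the log2 change was -0.34 (SE 0.22, limma adjusted p = 0.344). CLK4 had 110 and 54.7 with STM2457, against 132 and 81.9 with DMSO, with overlapping arms and a log2 change of -0.42 (SE 0.39, limma adjusted p = 0.542). These CLK4 values rest on 29 and 14 reads with STM2457 and 41 and 17 reads with DMSO, and those of CLK1 on 83 and 58 reads with STM2457 and 102 and 72 reads with DMSO. At this depth the direction for CLK4 is not fixed, since without STM2457 replicate 2 it was 0.082.

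SRPK1 footprints numbered 4474 and 4006 in normalized signal with STM2457, against 3952 and 4304 with DMSO. These arms overlapped, and the log2 change was 0.038 (SE 0.095, limma adjusted p = 0.853). SRPK2 had 1542 and 1488 with STM2457, against 1172 and 1407 with DMSO, a log2 change of 0.24 (SE 0.12, limma adjusted p = 0.205) beside 0.26 in RNA. Leaving out 1 library moved CLK1 footprints to -0.098 without STM2457 replicate 2 and -0.57 without STM2457 replicate 1, and SRPK2 footprints to 0.11 without DMSO replicate 1 and 0.37 without DMSO replicate 2.

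**Figure D2:**
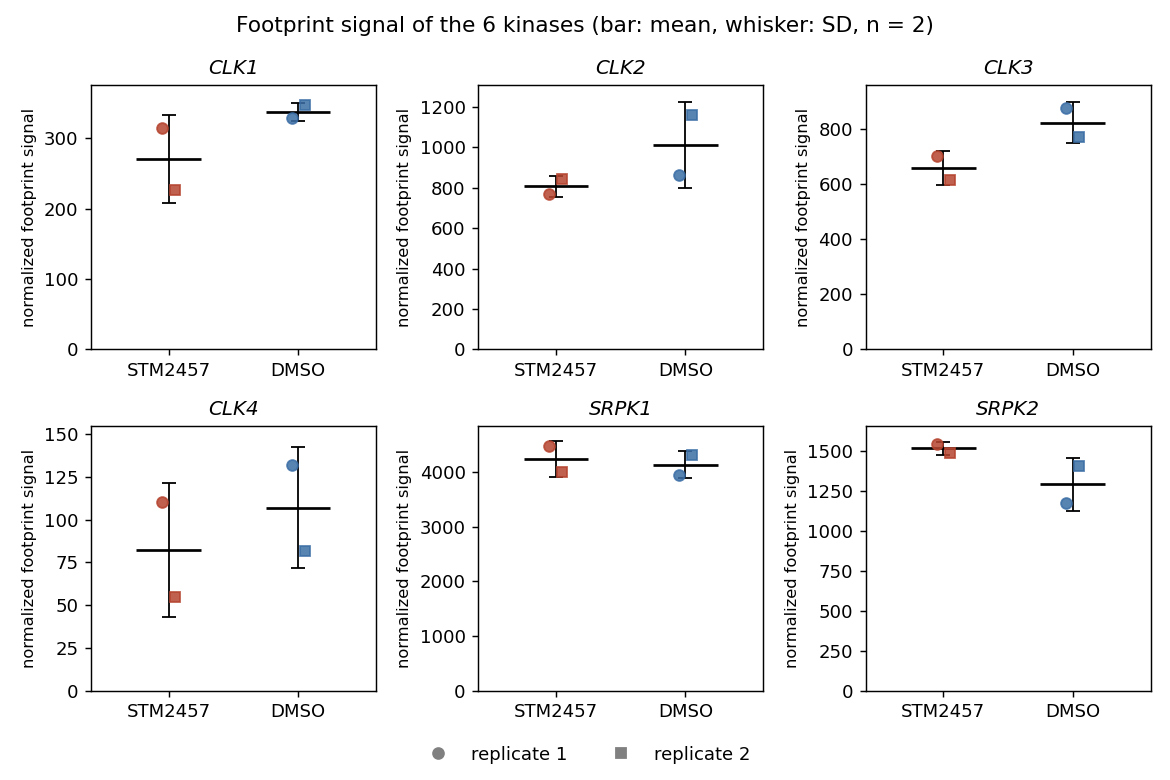
Normalized footprint signal (vertical axes, from 0) of each kinase in the 2 STM2457 and 2 DMSO libraries, with the mean as a bar and the SD as a whisker. STM2457 values lie below DMSO values for CLK1, CLK2 and CLK3 and above them for SRPK2, while CLK4 and SRPK1 overlap.

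With limma 0 of the 6 kinases passed in footprints, where 15.7% of 10906 genes did, 9.59% as higher and 6.13% as lower. At an unadjusted p under 0.05 there were 2, CLK2 and CLK3, beside 27% of all genes. The edgeR test on recovered reads called 0 kinases after adjustment, beside 15.8% of genes, and 3 at an unadjusted p under 0.05, beside 26.8% of genes. Of the 8 alternatives of this test, those that kept every library called 0 kinases after adjustment. Leaving out DMSO replicate 1, which left 1 DMSO library, put CLK2 at -0.53. Without DMSO replicate 2 it was at -0.097. Arms did not overlap for 4 of the 6 kinases and for 54% of all genes tested. For 3 of the kinases, CLK1, CLK2 and CLK3, the STM2457 libraries lay lower, as they did for 28.4% of genes.

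Translational efficiency is the footprint signal divided by the RNA signal of the same gene in the table. CLK4 had the lowest of the 6 kinases, 0.256 ± 0.122 with STM2457 and 0.297 ± 0.0982 with DMSO (SD over footprint libraries, n = 2 each). CLK1 followed at 0.357 ± 0.0826 with STM2457 and 0.387 ± 0.0152 with DMSO, and CLK2 at 0.537 ± 0.0341 with STM2457 and 0.619 ± 0.129 with DMSO. The median gene had 1.04 in both arms.

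In rank, 3.68% of the 10906 genes lay below CLK4 with STM2457 and 4.22% with DMSO. For CLK1 these shares were 7.22% and 7.80%, and for CLK2 16.1% and 20.8%. So 3 of 4 CLK genes sat in the lowest 25% of genes in both arms. For CLK2 with DMSO this depended on the libraries used: 26.3% of genes lay below it with RNA-seq replicates 1 and 2 only (0.704), 27.7% with footprint replicate 2 only (0.711) and 15.8% with footprint replicate 1 only (0.528). CLK1 and CLK4 stayed in the lowest 25% under each of these choices in both arms.

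The other kinases were close to the median gene or above it. CLK3 had an efficiency of 0.977 ± 0.0897 with STM2457 and 1.06 ± 0.0979 with DMSO, with 45.3% and 51.5% of genes below it. SRPK1 had 1.22 ± 0.0952 with STM2457 and 1.29 ± 0.0779 with DMSO, and SRPK2 1.28 ± 0.0325 with STM2457 and 1.26 ± 0.163 with DMSO. SRPK1 and SRPK2 overlapped in both arms, and so did CLK1 and CLK4 with STM2457, at 0.415 and 0.298 for CLK1 and 0.342 and 0.170 for CLK4. Within each of the 4 footprint libraries CLK1 was above CLK4, by little in DMSO replicate 1 (0.377 over 0.366). The other neighbours in this order, CLK1 and CLK2, CLK2 and CLK3, and CLK3 and the SRPK genes, did not overlap in either arm.

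**Figure D3:**
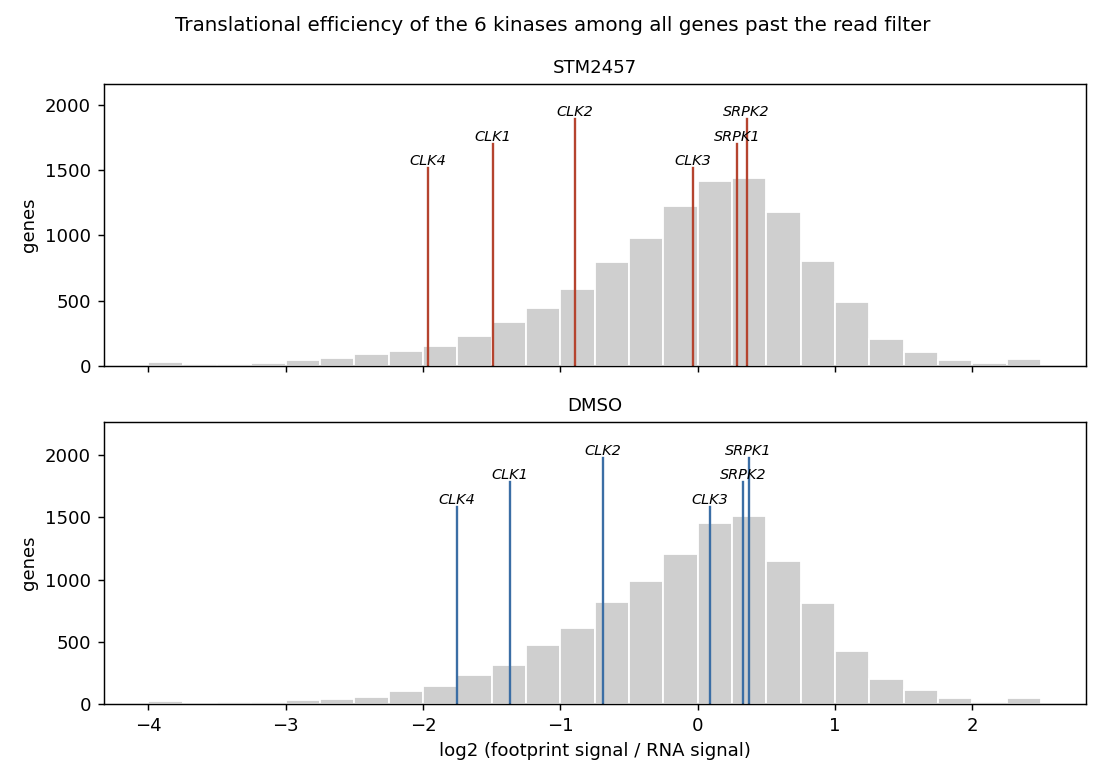
Number of genes (vertical axes) by log2 of footprint signal over RNA signal (horizontal axis) for the 10906 genes past the read filter, STM2457 above and DMSO below, with values beyond the axis gathered in the end bins. Vertical lines mark the 6 kinases: CLK4, CLK1 and CLK2 lie on the low side in both arms, and CLK3, SRPK1 and SRPK2 near the peak.

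The change of efficiency asks whether footprints moved differently from RNA. It was -0.14 for CLK1 (95% confidence interval -0.59 to 0.32, limma adjusted p = 0.937), -0.19 for CLK2 (-1.04 to 0.67, limma adjusted p = 0.958) and -0.12 for CLK3 (-0.48 to 0.23, limma adjusted p = 0.921). CLK4 had -0.25 (-0.91 to 0.41, limma adjusted p = 0.906), SRPK1 -0.086 (-0.33 to 0.16, limma adjusted p = 0.919) and SRPK2 0.031 (-0.26 to 0.32, limma adjusted p = 0.983). The interval is widest for CLK2, whose RNA varied most between replicates, and narrowest for SRPK1. In a fit without a weight per assay the SE was largest for CLK4 (0.31), against 0.21 for CLK2. The count of calls was 0 of 6 with limma, also at an unadjusted p under 0.05, where limma called 1.04% of 10906 genes, 0.229% as higher and 0.807% as lower, and 9.4% at an unadjusted p under 0.05. It was also 0 of 6 with the edgeR interaction, which called 3.9% of genes. On simulated data the limma efficiency test exceeded its nominal rate of false calls. That simulation gave RNA and footprints the same spread beyond counting noise. On these data the limma test called fewer genes than the edgeR interaction, but a count of calls does not measure how many are false. The share of false calls among them is not known here, and the 1.04% may be too high. In the authors' deposited table the log2 changes of efficiency were -0.14 for CLK1, -0.27 for CLK2, -0.16 for CLK3, -0.23 for CLK4, -0.086 for SRPK1 and 0.021 for SRPK2.

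**Figure D4:**
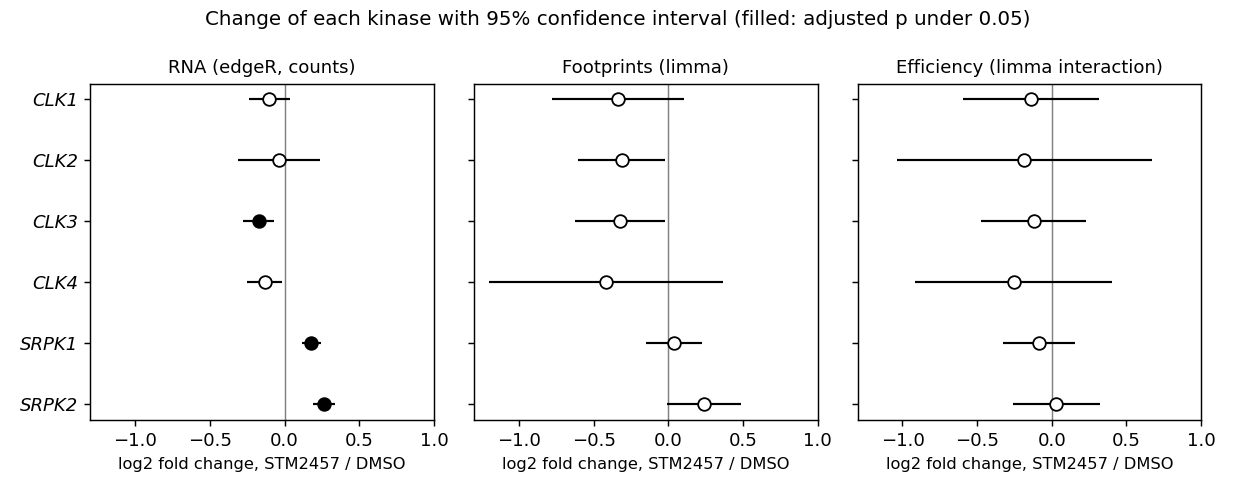
Log2 fold change, STM2457 over DMSO (horizontal axes), with its 95% confidence interval for each kinase in RNA, footprints and efficiency. Filled points passed an adjusted p under 0.05: CLK3, SRPK1 and SRPK2 in RNA, and none in footprints or efficiency.

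The table's own RNA columns, which hold another count of the RNA than the gene count files, gave a lower log2 fold change for every CLK and SRPK gene. With limma on these columns, an alternative chosen after the data were seen, CLK1 was at -0.20 (limma adjusted p = 0.00514), CLK4 at -0.16 (limma adjusted p = 0.0162) and CLK3 at -0.20 (limma adjusted p = 0.00143). The gene counts put CLK1 at -0.10, CLK4 at -0.13 and CLK3 at -0.17. SRPK1 was at 0.12 and SRPK2 at 0.21, both past the test, against 0.18 and 0.26 in the gene counts. CLK2 was at -0.13 and did not pass (limma adjusted p = 0.344). The median gene stood at -0.041 among the 10906 genes of this fit, against 0.0025 among the 17807 genes of the gene counts. Of those 10906 genes 6760 passed.

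The substrates of these kinases, 12 SRSF proteins and the related TRA2A and TRA2B, gave 4 higher and 1 lower RNA among 14 tested. Of all genes tested in RNA, 26.2% were higher and 21.6% lower. The median log2 change of the list was 0.025 against 0.0025 for all genes. SRSF4 had the smallest p, with 356 ± 7.17 CPM with STM2457 and 269 ± 0.740 CPM with DMSO (SD, n = 4 each), a rise of 0.41 on the log2 scale. SRSF8 rose by 0.18 and SRSF1, a prototypical SR protein, by 0.10, and SRSF6, named after its value was seen, by 0.14. TRA2B, which activates splicing through GA-rich enhancers, fell by 0.14. In footprints SRSF4 (0.29, limma adjusted p = 0.0144) and SRSF8 (0.50, limma adjusted p = 0.00687) rose, with 0 of 14 lower. Over all genes 9.59% rose and 6.13% fell in footprints. With ERCC scaling, where 12.1% of all genes were higher and 47.1% lower, the RNA counts were 1 higher and 9 lower.

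Other kinases that phosphorylate splicing factors, with phosphatase subunits and the SR protein importin TNPO3, gave 6 higher and 1 lower of 15 in RNA (median 0.19). The shares over all genes were 26.2% higher and 21.6% lower. DYRK3, a kinase that dissolves nuclear speckles, rose by 0.91 in RNA and 0.96 in footprints. Its RNA averaged 84.4 ± 3.26 CPM with STM2457 and 44.7 ± 1.61 CPM with DMSO (SD, n = 4 each). DYRK2 RNA rose by 0.82, and CDK13 and CDK12, kinases of the RNA polymerase tail, by 0.59 and 0.44. DYRK1A (0.38) and DYRK1B (0.38) complete the 6, and the 1 that fell was AKT1 (-0.10); these 3 were named after their values were seen. CDK12 (0.45) and CDK13 (0.50) rose in footprints too. With DYRK3 these made 3 higher and 0 lower of 14 tested in footprints, beside 9.59% of all genes higher and 6.13% lower. With ERCC scaling 6 of this list were higher and 7 lower, beside 12.1% of all genes higher and 47.1% lower.

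Of 11 genes described elsewhere as having retained or detained introns, 3 rose and 1 fell in RNA (median -0.0038). Over all genes 26.2% rose and 21.6% fell in RNA. OGA, which removes O-GlcNAc from proteins, rose by 0.55 in RNA and 0.70 in footprints, and MAT2A (0.11) and PNISR (0.10) rose in RNA. TIA1, an RNA-binding splicing regulator, fell by 0.16. In footprints 1 rose, OGA, and 2 fell, OGT (-1.44) and LUC7L3 (-0.43), both named after their values were seen. The shares over all genes tested in footprints were 9.59% higher and 6.13% lower. Low efficiency was not general in this list: 5 of 11 sat in the lowest 25% of genes in each arm, among them the cyclin gene CCNL1, named after its value was seen, at 0.376 ± 0.0343 with STM2457 and 0.344 ± 0.0403 with DMSO. MAT2A was at 1.39 ± 0.0164 with STM2457 and 1.36 ± 0.0156 with DMSO. Core spliceosome proteins gave 8 higher and 9 lower of 29 in RNA (median 0.0043), with PRPF4 at 0.30 and SNRPA at 0.22 among the increases and PRPF19 at -0.26 and SNRPD1 at -0.18 among the decreases. In footprints 1 of 27 rose, PRPF4 (0.36), and 5 fell, among them SNRPD1 (-0.43). The shares over all genes given for the intron list, in RNA and in footprints, apply to this list too. With ERCC scaling the intron list had 1 higher and 7 lower, and the spliceosome list 0 higher and 22 lower, on the genome-wide shift to lower values given above for that scaling.

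Likeness of pattern was measured as the root mean square difference between log2 profiles over 12 libraries, each profile centred within its assay, among 10858 other genes. The nearest genes were HDAC7 (0.0357) and NAGK (0.0544) for CLK1, TAFAZZIN (0.0765) and DALRD3 (0.0767) for CLK2, and MFSD3 (0.0436) and AP2A2 (0.0441) for CLK3. They were PHLDB2 (0.0879) and CUEDC1 (0.0897) for CLK4, CDV3 (0.0195) and KPNA1 (0.0220) for SRPK1, and MGAT5 (0.0317) and RPL22 (0.0324) for SRPK2. Among the kinases themselves CLK1 and CLK3 were each other's nearest (0.0920), as were SRPK1 and SRPK2 (0.0777). Few reads were counted for genes named as copies of these kinases: CLK2P1, CLK3P2 and SRPK2P stayed at or under 0.322 CPM in every library. The other SRPK gene, SRPK3, was at 0.0953 to 0.376 CPM. How reads shared between a kinase and its copy were counted was not tested.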

How the data were processed

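RNA-seq values are raw read counts per gene as deposited, in files that also hold 92 ERCC spike-in sequences. The submitters' processing notes name the genome build GRCh38.p12 and list STAR 2.7.3a, featureCounts, Subread 2.0.3, UMI-tools 1.1.2, SAMtools 1.10, FastQC 0.11.9, DESeq2 and bedtools 2.29.2, without saying which step used which. The deposited series table holds a normalized signal per library, the authors' mean signals (for RNA of replicates 1 to 3), the authors' efficiency as a ratio of mean footprint to mean RNA signal, and the authors' log2 change of efficiency. The feature counted for the table is not given in the sources used here. Footprint signals were whole multiples of 1 step per library in 100% of values within 0.1 of a read, so reads were recovered.

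RNA was tested with edgeR 4.0.16 (quasi-likelihood, TMM, filterByExpr, without spike-ins) in R 4.3.3. Footprints were tested with limma 3.58.1 on log2(signal + 1) for genes averaging 10 or more recovered reads over the footprint libraries. Efficiency was tested with limma as the interaction of assay and treatment, with a weight per assay and the same filter. Fold changes of signals are on that log2 scale. Adjusted p-values are Benjamini-Hochberg over all tested genes, with 0.05 as the threshold. CPM used TMM factors, and log2 CPM a prior count of 2. DESeq2 1.42.0 was an alternative. The tests were checked on simulated data, where the limma efficiency test called more unchanged genes than its threshold allows and than the edgeR interaction did, so both are given. The fit for efficiency was run with and without a mean-variance trend, and the trend was kept after the calls of both had been seen; it changed no call of the kinases. Alternatives were other scalings, filters, pseudocounts and tests, a replicate block, and each library left out. Groups follow the sample labels.

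The members and the gene lists were chosen with earlier results of these data known. The rule for named genes took the 6 kinases, the 4 members of each list with the smallest RNA p, any called in efficiency, and the 2 genes nearest to each kinase in profile. Genes of the SR protein, kinase, intron and spliceosome lists outside that rule are marked as named or picked out after their values were seen. Symbols were found for 60306 of the 60662 identifiers. The result of 1 further marker list is not reported here.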

Additional observations from a re-analysis of the deposited data

How the results depend on the processing

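CLK3 RNA passed, as lower, in all 17 alternatives of the RNA test. SRPK1 and SRPK2 RNA passed in all of them except ERCC scaling, where they were at -0.016 and 0.067. CLK1 RNA passed with library size scaling (-0.19), ERCC scaling (-0.30), no filter (-0.11), replicates 1 and 2 only (-0.14), the term for pairs of replicates (-0.10) and the table's RNA columns (-0.20). CLK4 RNA passed with DESeq2 (-0.15), library size scaling (-0.23), ERCC scaling (-0.33), no filter (-0.14), that term (-0.13) and the table's columns (-0.16). Calls over all genes numbered 8511 in the main test and 8078 with DESeq2. They numbered 9713 with library size scaling, 10542 with ERCC scaling, 8796 with no filter, 9604 with that term and 9542 with the replicate block. The replicate block put CLK1 at -0.10 (edgeR adjusted p = 0.0316) and CLK4 at -0.13 (edgeR adjusted p = 0.0171), both passing, and changed no other kinase's call. Same-numbered RNA-seq libraries correlated at 0.0763 to 0.227 across genes in their deviations from the arm means, and only replicate 2 correlated best with its own number. Pairing by replicate number was therefore not established. STM2457 replicates 1 and 2 correlated best with DMSO replicate 2. STM2457 replicate 3 did so with DMSO replicate 4, and STM2457 replicate 4 with DMSO replicate 3. Each best match thus lay within the pairs of replicates described above, for which the main test has no term. With the replicate block the SE was 0.038 for CLK1 and 0.043 for CLK4, against 0.063 and 0.053 in the main test. The term for pairs of replicates gave an SE of 0.037 for CLK1 and 0.044 for CLK4. In both fits the log2 fold changes stayed almost the same, whereas with library size or ERCC scaling they moved lower, as did the median gene. The median gene stood at -0.090 with library size scaling and -0.19 with ERCC scaling, against 0.0025 in the main test. The source of the differences in SE was not tested.

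Leaving out 1 library at a time moved CLK1 RNA between -0.16 and -0.057, CLK2 RNA between -0.17 and 0.034 and CLK4 RNA between -0.17 and -0.096. Footprint changes ranged from -0.57 to -0.098 for CLK1, -0.53 to -0.097 for CLK2, -0.42 to -0.23 for CLK3, -0.92 to 0.082 for CLK4, -0.042 to 0.12 for SRPK1 and 0.11 to 0.37 for SRPK2. Efficiency changes ranged from -0.38 to 0.10 for CLK1, -0.40 to 0.029 for CLK2, -0.22 to -0.028 for CLK3, -0.75 to 0.25 for CLK4 (0.087 without DMSO footprint replicate 1), -0.17 to -0.0065 for SRPK1 and -0.10 to 0.16 for SRPK2. No kinase passed in efficiency in any of 19 alternatives. Footprint calls over all genes numbered 1715, and 1004 to 1464 when a library was left out, the fewest without DMSO replicate 2. Efficiency calls numbered 113, with 825 without weights, 425 with the edgeR interaction and 70 without the mean-variance trend, an alternative added after seeing the data. They ranged from 37 to 129 when a library was left out, with 45 without STM2457 footprint replicate 2, 49 without DMSO footprint replicate 1 and 37 without DMSO footprint replicate 2. With RNA-seq replicates 1 and 2 only, the efficiency of CLK2 was 0.612 with STM2457 and 0.704 with DMSO, and that of SRPK2 with STM2457 was 1.24. CLK4 rests on the fewest footprint reads of the 6 kinases, 14 to 41 per library.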

Other observations

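OGT, which adds O-GlcNAc to proteins and whose transcript is known for a detained intron, was picked out after its values were seen. Its RNA was at 223, 214, 287 and 258 CPM with STM2457, against 235, 221, 276 and 277 CPM with DMSO, and did not pass (log2 fold change -0.04, edgeR adjusted p = 0.750). Its footprint signal was 684 and 699 with STM2457, against 1815 and 1942 with DMSO, and fell by 1.44 on the log2 scale (limma adjusted p = 3.5e-13). OGT efficiency was 0.245 ± 0.00383 with STM2457 and 0.601 ± 0.0287 with DMSO (SD, n = 2 each), a log2 change of -1.28 that missed the threshold with limma (adjusted p = 0.0510) and passed with the edgeR interaction (-1.35, edgeR adjusted p = 0.00475). OGT RNA also shared the replicate difference of CLK2, since replicates 3 and 4 exceeded replicates 1 and 2 by 0.32 on the log2 scale with STM2457 and by 0.28 with DMSO.

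Besides OGT, the edgeR interaction called 2 listed genes that the limma test did not. DYRK2 efficiency was lower by -0.46 (edgeR adjusted p = 0.0489; limma -0.35, adjusted p = 0.459), and SRSF8 efficiency was higher by 0.36 (edgeR adjusted p = 0.0251; limma 0.22, adjusted p = 0.742).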
